A study of Mus musculus with 2 samples.

Results

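The Mir17hg polycistron, known as mir-17-92, consists of 6 microRNA hairpins that lie in a row on mouse chromosome 14. They were found by matching Ensembl identifiers to the GENCODE names Mir17, Mir18, Mir19a, Mir20a, Mir19b-1 and Mir92-1, which gave 6 of the 1973 gene rows. The rule rests on names and position and sets no threshold on a measured value. Short RNA was sequenced from hindbrain of healthy mouse embryos of strain B6NCrl at embryonic day 13.5, with both sexes pooled. There were 2 libraries, replicates 1 and 2, in 1 group, with no treatment, no second genotype and no second stage. The labels call them biological replicates and give them 1 donor identifier and separate biosample identifiers. Separate litters are not stated, so the spread between these libraries may be partly technical. The adjusted p-values given below compare the 2 libraries with counting error as the only error, and do not measure variation between animals. All comparisons are between hairpins within this tissue, or between its libraries.

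Mir17hg is transcribed as 1 long RNA, from which the Drosha complex cuts the hairpins and Dicer then cuts the mature microRNAs. The mature microRNA is loaded into an Argonaute protein and finds its targets mainly through its seed, bases 2 to 8. The locus is driven by Myc and E2F factors, is active in dividing cells and is known as an oncogene in lymphoma. In the developing nervous system it is known to act in neural progenitors and in motor neuron survival, and its targets include Cdkn1a, an inhibitor of the cell cycle. Related hairpins sit in 2 further clusters, Mir106a to Mir363 on the X chromosome and Mir106b to Mir25 on chromosome 5.

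The 6 hairpins carry 4 seeds, and the named mature sequences are shown because they set both the families and the reads that can be told apart. They were read from the RefSeq microRNA table on GRCm38.p6, which matched 6 of 6 hairpins. They are written 5′ to 3′ with the seed in capitals.
mmu-miR-17-5p from Mir17: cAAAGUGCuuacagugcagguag
mmu-miR-20a-5p from Mir20a: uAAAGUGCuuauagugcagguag
mmu-miR-18a-5p from Mir18: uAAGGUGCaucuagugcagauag
mmu-miR-19a-3p from Mir19a: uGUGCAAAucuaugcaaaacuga
mmu-miR-19b-3p from Mir19b-1: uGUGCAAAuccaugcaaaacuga
mmu-miR-92a-3p from Mir92-1: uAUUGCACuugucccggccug
With positions counted from 1 at the 5′ end, miR-17-5p and miR-20a-5p differ by C1U and C12U, both outside the seed. Within the seed miR-18a-5p differs from miR-17-5p by A4G, which makes it a family of its own. The sequences of miR-19a-3p and miR-19b-3p differ by U11C alone.

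Mir19b-1 and Mir92-1 each have a twin on the X chromosome that makes the identical mature microRNA, and these hairpins are shown because reads common to both copies could be set aside in the authors' counting. The longest run shared by both hairpins of a pair is in capitals.
Mir19b-1: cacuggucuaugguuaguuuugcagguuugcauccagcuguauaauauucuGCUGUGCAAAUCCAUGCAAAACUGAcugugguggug
Mir19b-2: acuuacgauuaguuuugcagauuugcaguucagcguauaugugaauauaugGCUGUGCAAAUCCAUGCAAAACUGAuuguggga
Mir92-1: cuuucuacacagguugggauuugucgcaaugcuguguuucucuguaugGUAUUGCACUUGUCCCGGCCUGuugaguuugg
Mir92-2: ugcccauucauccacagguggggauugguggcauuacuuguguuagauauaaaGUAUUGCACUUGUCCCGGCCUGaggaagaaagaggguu
The shared run is 25 nt for the Mir19b pair and 22 nt for the Mir92 pair, against mature lengths of 23 and 21 nt, so a read of the exact mature sequence matches both copies. Of the 20-nt stretches in each hairpin, 6 of 68 in Mir19b-1 and 3 of 61 in Mir92-1 recur in the twin. Mir17, Mir18, Mir19a and Mir20a share no 20-nt stretch with another annotated microRNA hairpin. The levels of Mir19b-1 and Mir92-1 are uncertain for this reason, since multimapping reads, 2080061 in replicate 1 and 3270252 in replicate 2, belong to no gene row.

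The hairpins lie on the plus strand at chr14:115043671-115043754 (Mir17), chr14:115043851-115043946 (Mir18), chr14:115044000-115044081 (Mir19a), chr14:115044157-115044263 (Mir20a), chr14:115044305-115044391 (Mir19b-1) and chr14:115044427-115044506 (Mir92-1), on GRCm38. They span 836 nt. All 6 fall within exon 2 of the non-coding gene Mir17hg (ENSMUSG00000089726.2, chr14:115042879-115046727), and Mir17 begins 793 nt from the annotated start of the gene. The gaps between neighbours were 96, 53, 75, 41 and 35 nt in order from Mir17.

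Levels are CPM, a gene's counts scaled to 1000000 over all gene rows. The gene rows of replicate 1 totalled 3006571 counts and those of replicate 2 totalled 4508244. Detection asked for 10 or more counts in each library, and 356 genes met it, with a median of 166 CPM. All 6 hairpins were detected. Bracketed intervals are exact 95% Poisson intervals, which cover counting error only. In these libraries the Hox cluster microRNAs Mir10a and Mir10b, which mark hindbrain and trunk position, summed to 121142 ± 16595 CPM (SD, n = 2). Of 10 neural markers with a row 6 were detected, led by Mir137 at 6207 ± 105 CPM. The 3 Mir124a copies, the usual neuronal marker, had 3.55 CPM or less on average, and each shares at least 24 stretches of 20 nt with another hairpin. Marker lists summed to 19729 ± 1148 CPM for endothelium (1 gene, Mir126a) and 39.9 ± 4.17 CPM for liver (1 gene, Mir122). The blood list summed to 436 ± 28.0 CPM (4 of 4 genes with a row detected) and muscle to 108 ± 35.6 CPM (2 of 4). These SDs hide members that moved in opposite directions. From replicate 1 to replicate 2, Mir451a went from 152 to 57.5 CPM and Mir155 from 142 to 186. Mir208b went from 100 to 17.7 CPM and Mir206 from 32.6 to 64.1. The part of the lists in the Mir17hg levels was not tested. In bulk tissue, fewer cells of a type and less RNA per cell cannot be told apart.

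The 6 Mir17hg hairpins together held 165822 counts, or 55153 CPM (54888 to 55419), in replicate 1 and 265715 counts, or 58940 CPM (58716 to 59164), in replicate 2. The mean was 57046 ± 2678 CPM (SD, n = 2), which is 5.70% ± 0.268 of all counts on microRNA genes. Replicate 2 was the higher library.

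In counted reads, the members differed far more from one another than the libraries did. How evenly different mature sequences were captured in the libraries was not tested, and the SD between libraries cannot show it. The first hairpin, Mir17, whose miR-17-5p founds the growth-promoting family of the cluster, had 105591 counts (35120 CPM, 34909 to 35333) in replicate 1 and 167053 (37055 CPM, 36878 to 37233) in replicate 2. It averaged 36088 ± 1368 CPM (SD, n = 2). Mir20a, which carries the same seed, had 40843 counts (13585 CPM) in replicate 1. In replicate 2 it had 67566 (14987 CPM), and it averaged 14286 ± 992 CPM. Pooled by seed, these hairpins made up 88.3% of the counts of the cluster in each library, with an SD of 0.00757 percentage points. All shares of the cluster leave out reads that Mir19b-1 and Mir92-1 have in common with their X chromosome copies. The SD does not cover this. Mir17 alone held 63.3% ± 0.571 and Mir20a 25.0% ± 0.564.

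Mir18, the source of miR-18a-5p, followed with 13869 counts (4613 CPM) in replicate 1 and 21965 (4872 CPM) in replicate 2. Its mean of 4743 ± 183 CPM was 8.32% ± 0.0689 of the cluster (SD, n = 2). Mir92-1, the last hairpin, makes miR-92a-3p, which belongs to an older family than the rest and is known for a role in blood vessels. It had 5310 counts (1766 CPM) in replicate 1 and 8754 (1942 CPM) in replicate 2. This averaged 1854 ± 124 CPM, or 3.25% ± 0.0653 of the counted reads of the cluster, without reads common to Mir92-2.

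In counted reads, without those common to Mir19b-1 and Mir19b-2, both mir-19 hairpins stood far below the others. In mouse lymphoma models miR-19 is the member known to carry most of the oncogenic activity of the cluster. Mir19a had 173 counts (57.5 CPM, 49.3 to 66.8) in replicate 1 and 336 (74.5 CPM, 66.8 to 82.9) in replicate 2. Mir19b-1 had 36 counts (11.97 CPM, 8.39 to 16.6) in replicate 1 and 41 (9.09 CPM, 6.53 to 12.3) in replicate 2. Their means were 66.0 ± 12.01 and 10.5 ± 2.04 CPM (SD, n = 2 each), and together they held 0.134% ± 0.0112 of the counts of the cluster. Mir19a was higher in replicate 2 and Mir19b-1 in replicate 1, and these small counts had the widest relative spread, with a coefficient of variation of 18.2% for Mir19a and 19.3% for Mir19b-1, against 3.79% for Mir17.

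Mir19a is not a duplicated hairpin in the sense that Mir19b-1 is, since it has 0 of 63 stretches of 20 nt in common with another hairpin. Its mature sequence is nevertheless 1 base from that of both Mir19b copies. How many mismatches the alignment allowed is not given in the sources used here, and how many reads of Mir19a were set aside was not tested.

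**Figure D1:**
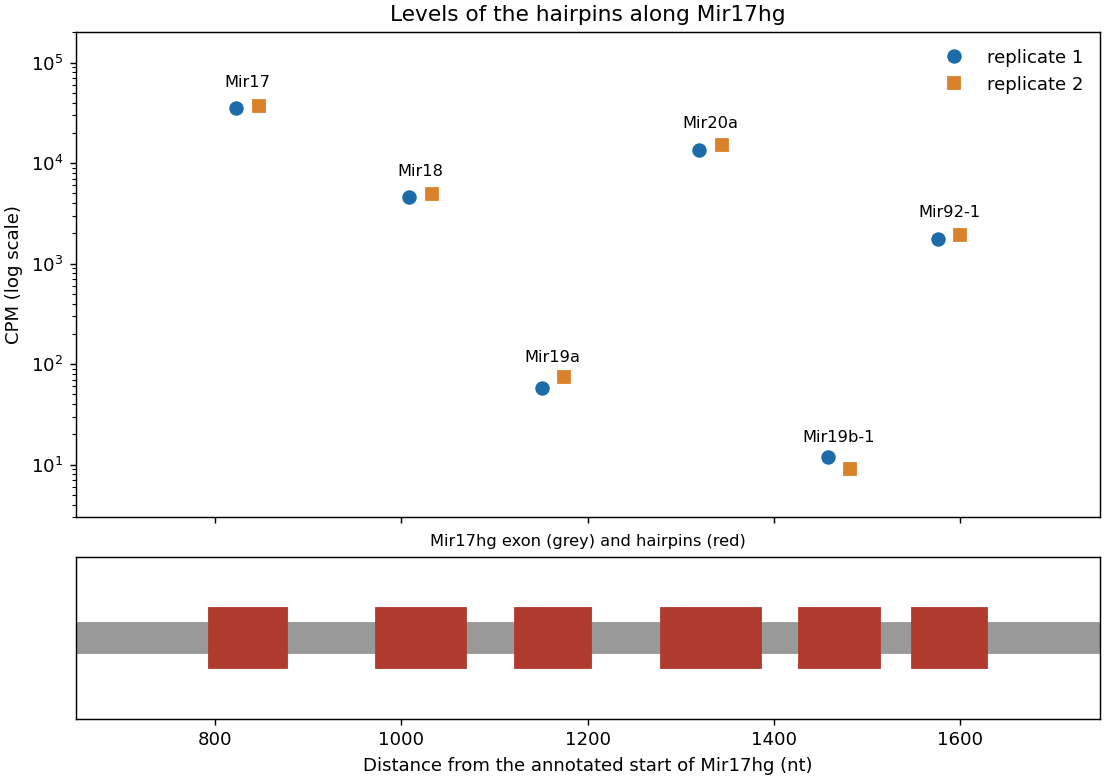
The upper panel plots CPM (log scale) of each Mir17hg hairpin in replicate 1 (circles) and replicate 2 (squares) against its distance in nt from the annotated start of the gene; the lower panel draws exon 2 in grey and the hairpins in red. Hairpins of 1 transcript ran from Mir17 at 36088 CPM to Mir19b-1 at 10.5 CPM on average, while the symbols of the replicates lie close together. Levels of Mir19b-1 and Mir92-1 leave out reads common to their X chromosome copies.

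The order of the counted levels was Mir17, Mir20a, Mir18, Mir92-1, Mir19a, Mir19b-1, and it was alike in both libraries. The places of Mir92-1 and Mir19b-1 are uncertain, since reads common to them and their X chromosome copies are in no row. Mir17 had 2.59 times the counts of Mir20a in replicate 1 and 2.47 times in replicate 2. Mir20a stood 2.94-fold and 3.08-fold above Mir18 in replicates 1 and 2, and Mir18 stood 2.61-fold and 2.51-fold above Mir92-1. The step from Mir92-1 to Mir19a was the largest, 30.7-fold in replicate 1 and 26.1-fold in replicate 2. Mir19a exceeded Mir19b-1 by 4.81-fold in replicate 1 and 8.20-fold in replicate 2. For all 5 neighbouring pairs the values of the libraries did not overlap, and the gap of the means exceeded the sum of the SDs. An exact permutation test of 2 values against 2 cannot go below p = 0.33, so the order is a description of these libraries. Per 100 nt of annotated hairpin the order was the same, but it could not have come out otherwise. The hairpins are 80 to 107 nt long, a smaller range than the smallest step of 2.47-fold. The order does not follow the position in the transcript, since the third and the fifth hairpins were the lowest.

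Ratios to Mir17 within a library do not depend on library size. Those of Mir92-1 and Mir19b-1 leave out reads common to their X chromosome copies, which are in no row. On the log2 scale, over the mean of the replicates, Mir20a lay at -1.34 ± 0.0455 relative to Mir17, Mir18 at -2.93 ± 0.00108 and Mir92-1 at -4.28 ± 0.0420 (SD, n = 2). Mir19a lay at -9.11 ± 0.209, with Mir17 610-fold higher in replicate 1 and 497-fold higher in replicate 2. Mir19b-1 lay at -11.76 ± 0.335, with Mir17 2933-fold higher in replicate 1 and 4074-fold higher in replicate 2. The ratios of the abundant members thus varied less between libraries than those of the mir-19 hairpins.

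Sequence features of the hairpins are given without a test. Their G and C content ran from 43.7% in Mir19b-1 to 47.5% in Mir92-1, against a median of 50% and a range of 28.4% to 80% over the 309 detected hairpins with a RefSeq sequence. Folding energy per nt, from RNAfold, ran from -0.30 kcal/mol per nt in Mir18 to -0.47 kcal/mol per nt in Mir19a, around a median of -0.43 over those hairpins. It was -0.434 for Mir19b-1 and -0.437 for Mir17. Among the mature sequences, G and C content was lowest in miR-19a-3p at 34.8%, then 39.1% in both miR-19b-3p and miR-20a-5p. It was 43.5% in miR-18a-5p, 47.8% in miR-17-5p and 57.1% in miR-92a-3p. A relation of these features to the levels was not tested.

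Other hairpins in the genome carry the same seeds, so the part of each seed family that came from Mir17hg was computed. Families were all hairpins with the seed on the same arm as the Mir17hg member, and counts of a hairpin include both of its arms. Members of the mir-17 seed family outside Mir17hg are shown with their seeds, because they differ from miR-17-5p by few bases.
mmu-miR-106a-5p from Mir106a: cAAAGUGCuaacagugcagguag
mmu-miR-20b-5p from Mir20b: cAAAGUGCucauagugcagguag
mmu-miR-93-5p from Mir93: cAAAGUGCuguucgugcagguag
mmu-miR-106b-5p from Mir106b: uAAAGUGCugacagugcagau
Relative to miR-17-5p, the change in miR-106a-5p is U10A, those in miR-20b-5p are U10C and C12U, and those in miR-93-5p are U10G, A11U, C12U and A13C. In miR-106b-5p they are C1U, U10G and G20A.

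Mir17 and Mir20a supplied 64.8% (exact binomial 95% interval 64.7 to 65.0) of the mir-17 seed family in replicate 1 and 64.6% (64.4 to 64.8) in replicate 2. The family of 6 hairpins summed to 77830 ± 3852 CPM, or 7.78% ± 0.385 of all counts on microRNA genes (SD, n = 2). Most of the rest came from the chromosome 5 cluster. Against Mir17 at 36088 CPM, Mir93 stood at 17605 ± 922 CPM and Mir106b at 8463 ± 515 CPM. Mir17 exceeded Mir93 by 2.07-fold in replicate 1 and 2.03-fold in replicate 2, and Mir106b by 4.34-fold and 4.20-fold. Mir20a, at 14286 CPM, lay below Mir93 in each library.

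The mir-18 family was almost wholly a product of Mir17hg. Mir18 supplied 98.8% of it in each library (98.6 to 99.0 in replicate 1, 98.6 to 98.9 in replicate 2), and Mir18b of the X chromosome had 58.5 ± 2.29 CPM (SD, n = 2). The mature sequences of Mir18 and Mir18b differ by A18U and A20U. The mir-19 family had few counts in all, 79.7 ± 10.2 CPM, of which Mir19a and Mir19b-1 held 95.9% (92.3 to 98.1) in replicate 1 and 96.2% (93.8 to 97.8) in replicate 2. This share is uncertain, since reads of miR-19b-3p common to both copies have no row.

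In counted reads, the mir-92 family was the one in which Mir17hg was in the minority. Mir92-1 held 26.4% (25.8 to 27.0) of the counts of 6 hairpins in replicate 1 and 25.9% (25.4 to 26.4) in replicate 2. Reads common to Mir92-1 and Mir92-2 are missing from both. This share, and the order of Mir92-1 and Mir92b, are uncertain for that reason.
mmu-miR-92b-3p from Mir92b: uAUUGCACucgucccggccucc
mmu-miR-25-3p from Mir25: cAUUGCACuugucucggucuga
mmu-miR-363-3p from Mir363: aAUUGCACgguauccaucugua
Over their first 21 bases, miR-92a-3p differs from miR-92b-3p by U10C and G21C, and from miR-25-3p by U1C, C14U and C18U. Mir92b, a single hairpin on chromosome 3 known from neural progenitors, led the family in counted reads at 4272 ± 453 CPM (SD, n = 2). The level of Mir92-1 was 0.447 times that of Mir92b in replicate 1 and 0.423 times in replicate 2. Mir363 and Mir25 were lower, at 473 ± 37.5 and 403 ± 26.5 CPM, Mir92-2 had 95.1 ± 3.79 CPM, and Mir367 had 0 counts in both libraries, which allows up to 0.998 CPM in replicate 1 and 0.665 CPM in replicate 2.

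**Figure D2:**
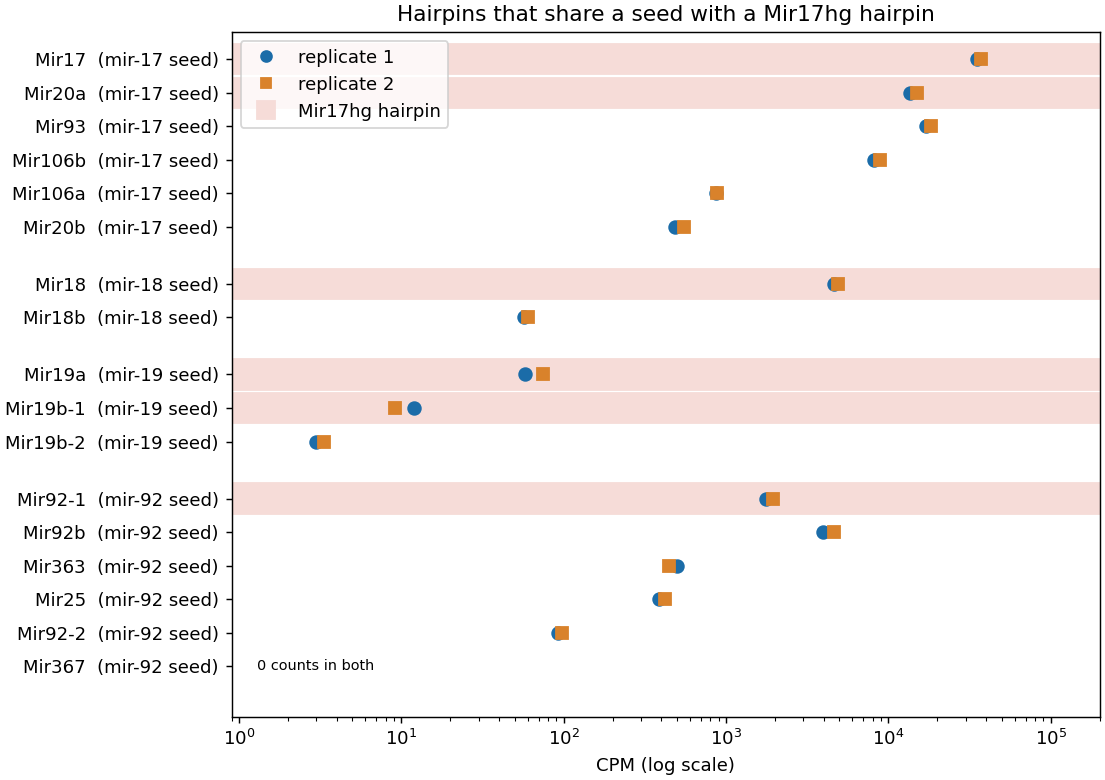
Levels in CPM (log scale) are plotted for each hairpin with the mir-17, mir-18, mir-19 or mir-92 seed on the named arm, with circles for replicate 1, squares for replicate 2 and shading for the hairpins of Mir17hg. Mir17 and Mir18 lead their families, Mir92b lies above Mir92-1, and all 3 mir-19 hairpins lie below 100 CPM. Reads common to identical copies are in no row and are not plotted.

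Compared slot by slot, the 5 Mir17hg hairpins with a counterpart in the X chromosome cluster, all but Mir19a, exceeded it. The X chromosome cluster summed to 2019 ± 23.7 CPM (SD, n = 2) over 6 hairpins. Mir17hg was 27.5-fold higher in replicate 1 and 29.0-fold higher in replicate 2. The excess was 40.5-fold and 42.4-fold for Mir17 over Mir106a in replicates 1 and 2, and 28.1-fold and 27.1-fold for Mir20a over Mir20b. Their mature sequences differ by 1 base in the first pair and 2 in the second. How reads of such close sequences were assigned was not tested. Mir18 exceeded Mir18b by 81.1-fold in each library. Mir92-1 exceeded Mir92-2 by 19.1-fold and 19.9-fold, both from the reads that the copies do not share. Mir19b-1 had 36 and 41 counts in replicates 1 and 2, against 9 and 15 for Mir19b-2, a ratio of 4 (1.89 to 9.44) in replicate 1 and 2.73 (1.48 to 5.32) in replicate 2.

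The X chromosome cluster had an internal order of its own. Mir106a held 43.1% ± 0.236 of its counts, Mir20b 25.7% ± 2.15 and Mir363 23.4% ± 2.13 (SD, n = 2), and Mir19b-2 had the fewest counts. With 9 and 15 counts in replicates 1 and 2, Mir19b-2 was not detected by the minimum of 10 in each library, and reads it shares with Mir19b-1 are in no row. A hairpin with the mir-19 seed had the fewest counted reads in each of the 2 clusters that hold one. These hairpins, Mir19b-1 and Mir19b-2, make the same mature microRNA, and reads common to the pair are left out of both rows. The 2 clusters are therefore not independent on this point. The chromosome 5 cluster, which has no mir-19 hairpin, summed to 26470 ± 1463 CPM, and Mir17hg was 2.17-fold higher in replicate 1 and 2.14-fold higher in replicate 2.

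Among all genes Mir17 ranked 7, Mir20a 17, Mir18 37, Mir92-1 72, Mir19a 225 and Mir19b-1 309 by mean CPM. The ranks of Mir92-1 and Mir19b-1 leave out reads common to their X chromosome copies and are uncertain. The nearest genes in level, over the 2 libraries, were Mir10b at 37089 ± 4311 CPM and Mirlet7i at 27985 ± 2333 CPM for Mir17 (SD, n = 2 each). Mir181c at 15157 ± 1324 CPM and Mir149 at 13009 ± 573 CPM lay next to Mir20a. Mir181a-1 and Mir411, at 5165 ± 241 and 4602 ± 356 CPM, flanked Mir18, and both share 20-nt stretches with other hairpins. Mir434 at 1927 ± 87.2 CPM and Mir125b-2 at 1818 ± 59.8 CPM flanked Mir92-1, and Mir125b-2 shares such stretches too. The lowest members sat beside Mir6540 and Mir190a (66.8 ± 2.49 and 62.8 ± 0.0625 CPM), of which Mir190a shares 1 stretch, and beside Mir1930 and Mir1969 (10.5 ± 1.10 and 9.70 ± 0.0809 CPM). Closeness in level is the sole measure here.

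**Figure D3:**
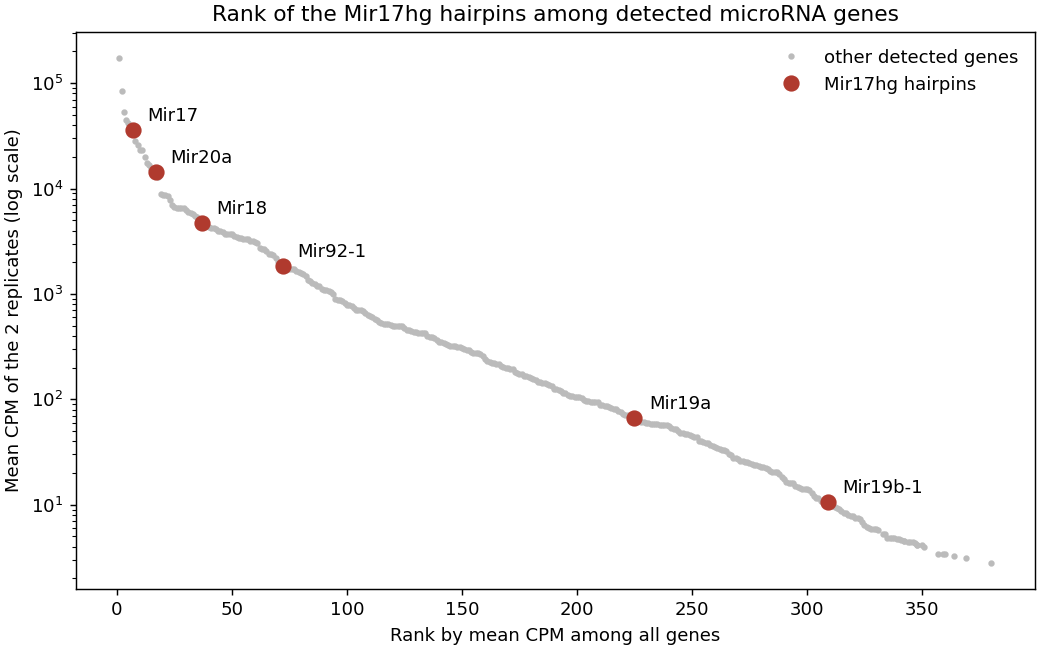
Mean CPM of the 2 replicates (log scale) is plotted against rank for the 356 detected genes in grey, with the Mir17hg hairpins in red. The 6 hairpins spread over most of the range, from rank 7 for Mir17 to rank 309 for Mir19b-1.

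Between the libraries the abundant hairpins were slightly higher in replicate 2. With edgeR's TMM scaling, the log2 ratio of replicate 2 over replicate 1 was 0.06 for Mir17, 0.07 for Mir18, 0.13 for Mir20a, 0.12 for Mir92-1, 0.36 for Mir19a and -0.41 for Mir19b-1. The median of the 6 was 0.09, beside 0.01 over all 356 detected genes, and the median absolute ratio was 0.13, beside 0.17. In the exact binomial test, two-sided and adjusted by Benjamini-Hochberg with counting error as its only error, 161 of the 356 genes differed, or 45.2%, with 22.5% higher and 22.8% lower in replicate 2. Of the hairpins 5 differed, all higher in replicate 2, with adjusted p = 7.0e-29 for Mir17, 3.8e-45 for Mir20a, 9.2e-05 for Mir18, 3.3e-06 for Mir92-1 and 0.019 for Mir19a, while Mir19b-1 had an adjusted p of 0.36. The depth of Mir17 and Mir20a makes very small ratios pass this test. When a biological coefficient of variation of 0.1 was preset in edgeR's exact test, 13 of the 356 genes and 0 of the 6 hairpins passed, although 1 library stood on each side. The common coefficient that edgeR estimated from these libraries was 0.141.

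**Figure D4:**
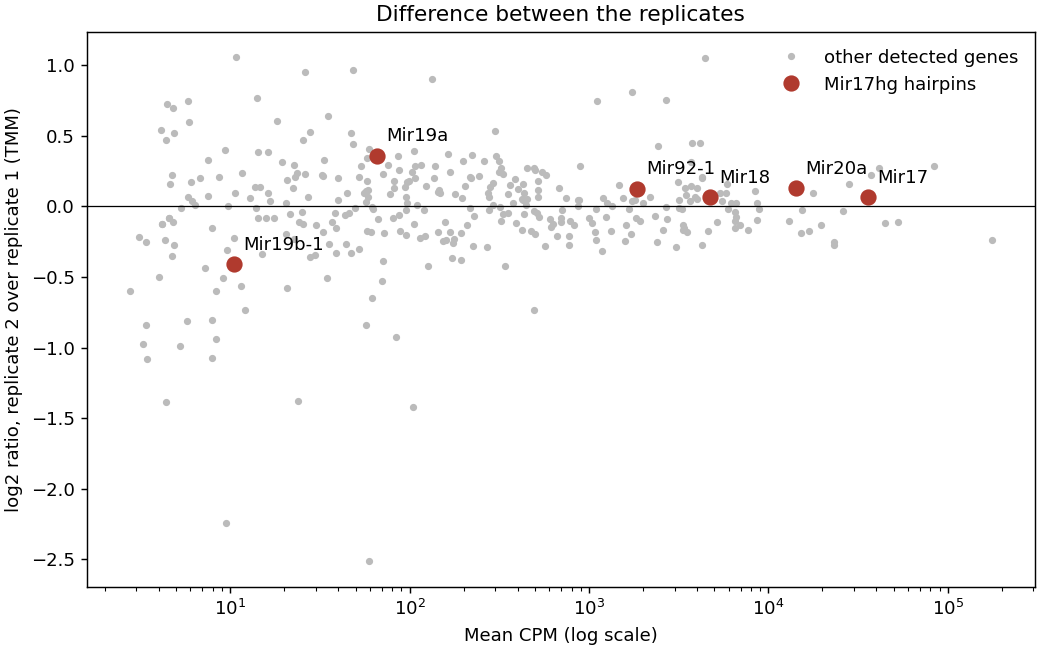
The log2 ratio of replicate 2 over replicate 1 (TMM scaling) is plotted against mean CPM (log scale) for detected genes in grey and Mir17hg hairpins in red; the line marks a ratio of 0. The abundant hairpins lie between 0.06 and 0.13, Mir19a at 0.36 and Mir19b-1 at -0.41, amid the cloud of other genes.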

How the data were processed

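Short RNA was sequenced from 2 libraries of mouse hindbrain at embryonic day 13.5. The authors deposited raw counts of reads per microRNA gene, aligned to mm10 and counted on GENCODE M4, per the README texts beside the tables. The sources used here do not name the aligner or the counter. Of the strand columns, which have no names, the one with 98.1% of the counts was taken as the annotated strand. Gene rows held 49.0% of 6141045 reads in replicate 1 and 47.5% of 9486700 in replicate 2. Multimapping reads, 33.9% and 34.5%, had been set aside, which lowers microRNAs with identical copies. Unmapped reads (14.0% and 14.6%) and reads outside any feature (3.15% and 3.39%) also stayed out of library sizes.

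Names and coordinates came from GENCODE M21 on GRCm38, the assembly mm10 denotes, with 1894 of 1973 identifiers matched. The 20-nt stretches were compared among annotated microRNA hairpins only. With 1 group, edgeR's quasi-likelihood test could not be run. Detected genes were compared between libraries by an exact binomial test (scipy 1.17.1) given TMM sizes (edgeR 4.0.16) at an adjusted p of 0.05. The test was tried on simulated counts with counting error only, which says nothing of variation between libraries. DESeq2 1.42.0 sizes were an alternative, and ViennaRNA 2.7.2 folded hairpins. Intervals and floors of 3 counts cover counting error only. Named genes were the 6 members, the paralogue clusters, Mir92b, hairpins that share a seed, and the gene just above and below each member in level. Members, lists and rules were chosen with earlier results of these data known. Other settings concerned library size, strand column, hairpin length, family definition, count minimum and leaving out each replicate.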

Additional observations from a re-analysis of the deposited data

How the results depend on the processing

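With all reads of the tables as denominator, the cluster summed to 27506 CPM, with 17402 for Mir17, 6887 for Mir20a, 2287 for Mir18, 894 for Mir92-1, 31.8 for Mir19a and 5.09 for Mir19b-1. Without the most abundant gene in the total, the sum was 69139 CPM, with 43742, 17310, 5748, 2246, 79.9 and 12.8 CPM for the same genes in the same order. Both follow from the denominator. TMM, DESeq2 sizes and either-strand counts moved each of these levels by less than its SD. Leaving out a replicate leaves the value of the other library and, with 2 libraries, says nothing of stability. Per 100 nt of hairpin, the log2 ratio to Mir17 was -3.12 for Mir18, -1.69 for Mir20a and -4.21 for Mir92-1. With Mir32, whose seed is on the other arm, the mir-92 family share was 25.4%. Without hairpins that share a mature sequence, the mir-92 share was 0, as Mir92-1 itself leaves. The mir-19 share was then 100%, as Mir19a alone is left. Both values are fixed by that rule. With edgeR's exact test and a coefficient of variation preset at 0.1, 13 of 356 genes differed between the libraries. Of the 6 hairpins 0 passed. The exact binomial test gave 161 of 356 genes, 169 with totals in place of TMM and 160 with DESeq2 sizes. Either-strand counts gave 170 of 367 genes. A minimum of 1 count gave 158 of 587 and a minimum of 100 counts gave 151 of 259, so the share called moved with the minimum. All these alternatives left the direction of all hairpins tested as it was. At a minimum of 100 counts Mir19b-1 was not tested. No paired analysis was possible because there is 1 group.

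Small counts limit Mir19a and Mir19b-1 among the members, and reads shared by identical copies are in no row.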

Other observations

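The opposite-strand column held 57609 counts in replicate 1 and 87500 in replicate 2 over all genes, but 0 at each of the 6 Mir17hg hairpins in both libraries. A count of 0 allows up to 3 counts per hairpin. Counts of the hairpins on either strand were therefore equal to those on the annotated strand. It was also at 0 for the 10 related hairpins, those of the paralogue clusters and Mir92b.

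Mir32, which carries the mir-92 seed on its 5′ arm, had 196 ± 6.95 CPM (SD, n = 2). Mir6383, the sole hairpin of the RefSeq table with the mir-17 seed on a mature sequence with no arm in its name, had 0 counts in both libraries.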
